A study of Mus musculus with 3 samples.

Results

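Pate8 Defb42 cells were droplets from whole mouse prostate whose RNA was dominated by seminal vesicle secretory transcripts and which also carried Pate8, Defb42 or Elf5. The cells were chosen by their own measured UMIs: a barcode was a member when it had at least 500 genes, at most 15% mitochondrial unique molecular identifiers (UMIs, which count captured RNA molecules), and at least 20% of its UMIs from Svs1, Svs2, Svs3a, Svs3b, Svs4, Svs5 and Svs6 together. Sva and Ceacam10 had to make up under 1% of its UMIs, and Pate8, Defb42 and Elf5 together needed at least 3 UMIs and more than Sprr2f, Folr1 and Spink8 together. These conditions held for 1669 of 32139 deposited barcodes, or of the 25288 that passed the gene and mitochondrial limits. The members numbered 503 in the Srd5a2 knockout library, 379 in Srd5a2 heterozygote 1 and 787 in Srd5a2 heterozygote 2. All 3 libraries came from prostates of C57BL6 mice aged 12 to 15 weeks, and each was made from tissue digested for 2 h at 37 °C with collagenase I, in a buffer that held dihydrotestosterone and a rock inhibitor, followed by TrypLE and red cell lysis. Every group was thus exposed to dihydrotestosterone during digestion, and no wild-type library enters the comparison. The labels do not state how many animals a library holds.

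The seminal vesicle is an androgen-dependent gland that empties beside the prostate and makes most of the volume of the seminal plasma. Its epithelium secretes the Svs proteins, several of which form the copulatory plug of rodents, together with small cysteine-rich proteins of the Pate family and protease inhibitors. The enzyme made from Srd5a2 converts testosterone to the stronger androgen dihydrotestosterone. The study's labels name whole prostate only, so the term seminal vesicle-like rests on transcripts and not on dissection.

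The genes that fixed the rule or the label are described here without any test. Pate8 (ENSMUSG00000091248.1, mm10 chromosome 9, 36581278 to 36582635, minus strand) encodes a small secreted Pate protein, and Defb42 (chromosome 14, 63046991 to 63058149, plus strand) a beta-defensin. Elf5 encodes an ETS transcription factor of secretory epithelia such as the lactating mammary gland. Pate4 (chromosome 9, 35607093 to 35611941, minus strand) encodes an abundant seminal vesicle protein, and Cdo1 cysteine dioxygenase, which makes the precursor of hypotaurine and taurine. Svs2 (chromosome 2, 164235929 to 164238466, minus strand) encodes a plug protein. Svs4 (164275952 to 164278459, minus strand) and Svs5 (164332740 to 164334396, plus strand) lie in the same stretch of chromosome 2. The intervals are gene bounds from the GENCODE vM21 annotation.

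Members and the class they were compared with, 660 Sprr2f Folr1 cells with the reverse marker order, used neighbouring Svs genes at opposite levels. On the scale of UMIs per 1000000 UMIs of the summed cells (CPM), Svs2 stood at 257502, 257196 and 223533 in members of the knockout, heterozygote 1 and heterozygote 2, against 5602, 18210 and 71477 in Sprr2f Folr1 cells of the same libraries. Svs4, which encodes a small basic secreted protein, stood at 10550, 9113 and 5375 CPM in members, against 243699, 194780 and 133909 CPM in Sprr2f Folr1 cells. Svs5 was abundant in both classes, at 190561, 231946 and 245065 CPM in members, against 246835, 304721 and 288268 CPM in Sprr2f Folr1 cells. For Svs2 and for Svs4 the values of the classes did not overlap across the 3 libraries, although the level of Svs2 in Sprr2f Folr1 cells of heterozygote 2 was well above that in the other libraries. So that the promoters of these 3 genes can be compared, the 250 bases before each RefSeq start (GRCm38.p6) are given in transcript direction, with GATAA, the core of the GATA factor motif, in capitals.
Svs2, chr2:164238342-164238591, minus strand: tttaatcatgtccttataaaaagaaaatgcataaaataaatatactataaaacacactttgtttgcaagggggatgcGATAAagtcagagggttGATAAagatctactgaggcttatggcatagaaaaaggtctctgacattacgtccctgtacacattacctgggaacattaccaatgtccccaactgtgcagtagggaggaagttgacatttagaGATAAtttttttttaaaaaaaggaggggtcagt
Svs4, chr2:164278308-164278557, minus strand: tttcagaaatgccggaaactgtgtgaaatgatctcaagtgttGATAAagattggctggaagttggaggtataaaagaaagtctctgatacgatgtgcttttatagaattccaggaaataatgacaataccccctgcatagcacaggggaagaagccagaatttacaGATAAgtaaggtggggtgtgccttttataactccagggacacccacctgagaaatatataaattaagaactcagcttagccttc
Svs5, chr2:164332515-164332764, plus strand: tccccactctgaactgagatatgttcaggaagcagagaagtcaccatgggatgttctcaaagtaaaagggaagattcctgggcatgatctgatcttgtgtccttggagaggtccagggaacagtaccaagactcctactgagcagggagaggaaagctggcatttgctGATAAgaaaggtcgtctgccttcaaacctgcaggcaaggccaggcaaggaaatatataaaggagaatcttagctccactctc

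GATAA occurred 3 times in the Svs2 window, 2 times in that of Svs4 and once in that of Svs5, and on either strand it occurred in 22.6% of 32851 RefSeq promoter windows of the same length. TATAAA, the TATA box, began 28 bases before the start in both Svs4 and Svs5, while the Svs2 matches lay 205 and 236 bases before its start. On either strand TATAAA occurred in 12.4% of all windows. The windows of Svs2, Svs4 and Svs5 reach into the GENCODE gene bounds given above, so distances here hold for the RefSeq starts only. The longest run shared by the Svs2 and Svs4 windows was GTTGATAAAGAT, of 12 bases, which begins 159 bases before the Svs2 start and 211 bases before the Svs4 start. The Svs4 and Svs5 windows shared GAAATATATAAA, also 12 bases, beginning 34 bases before the start in each. TGTTCT, the core of an androgen receptor site, matched once in Svs5, 199 bases before the start, and in neither of the other windows, against 16.1% of all windows. No match of one motif overlapped a match of another in these windows, the motifs were chosen with the sequences in view, and a match describes letters only. Of the 8 genes looked up, 5 had an entry in the RefSeq table, and Pate8, Pate4 and Cdo1 did not.

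Pate8, the defining gene, stood at 561, 281 and 184 CPM in members of the knockout, heterozygote 1 and heterozygote 2, against 5.50, 22.3 and 30.6 CPM in Sprr2f Folr1 cells. Defb42 stood at 511, 858 and 630 CPM in members, against 24.7, 247 and 178 CPM in Sprr2f Folr1 cells. Elf5 stood at 232, 206 and 202 CPM in members, against 39.8, 40.4 and 62.8 CPM in Sprr2f Folr1 cells. Elf5 was thus the most even of the 3 across libraries, Pate8 was highest in the knockout, and Defb42 was lowest there. Pate4 and Cdo1 were not part of the rule. Pate4 reached 75257, 63625 and 47891 CPM in members, against 11113, 24023 and 20707 CPM in Sprr2f Folr1 cells, and Cdo1 reached 2598, 3032 and 2391 CPM, against 558, 1504 and 1515 CPM. Both lay above their level in Sprr2f Folr1 cells in each library. They are markers of the label, chosen with earlier results of these data known, so their levels are no independent support. The levels of Pate8, Defb42 and Elf5 follow from the rule. Svs2 entered the rule only within the Svs sum, which both classes had to reach.

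The other rule genes were minor in members. Svs6 had 598, 194 and 401 CPM, and Svs1, Svs3a and Svs3b had 116, 109 and 84.0 CPM in knockout members, against 3.17, 7.65 and 4.75 CPM in heterozygote 1 and 7.48, 12.8 and 13.1 CPM in heterozygote 2. Sva had 125 CPM in knockout members, against 1.32 and 2.98 CPM in heterozygote members, and Ceacam10 287 CPM, against 19.1 and 15.5 CPM. In barcodes under 500 genes of the knockout, a measure of free RNA, Svs1 stood at 3139 CPM, Sva at 2827 CPM and Ceacam10 at 6197 CPM, each above its level in members. Svs genes made up 24.8% of UMIs in those knockout barcodes, against 2.45% and 3.92% in the barcodes of fewest genes of the heterozygotes.

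**Figure D1:**
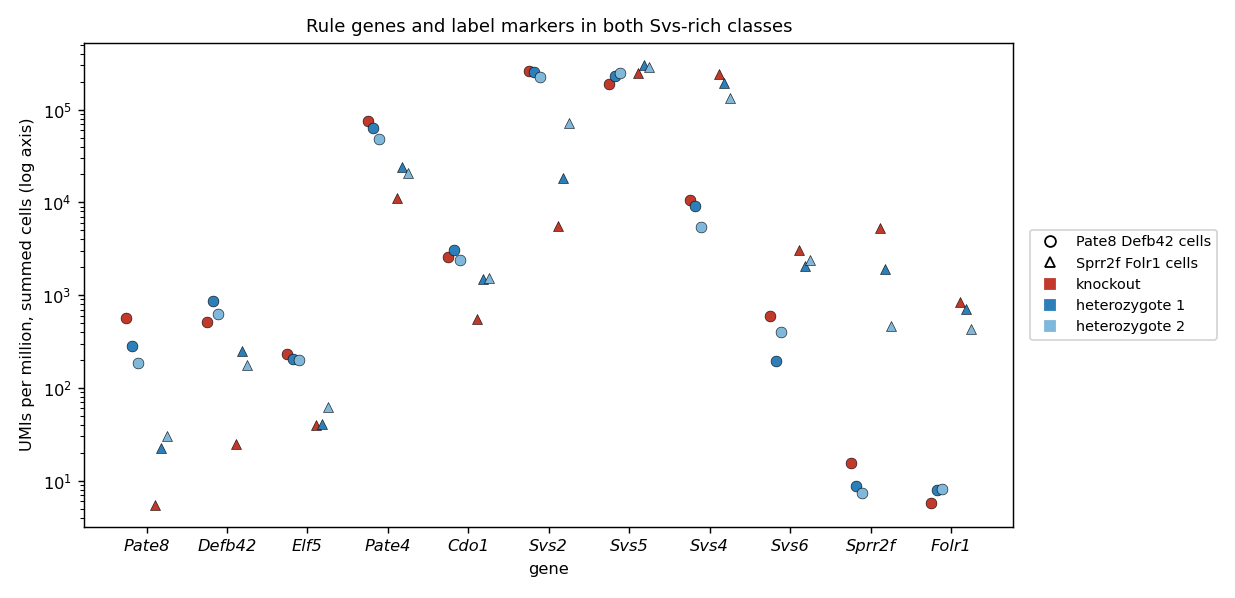
CPM (log axis) of 11 genes in the summed Pate8 Defb42 cells (circles) and Sprr2f Folr1 cells (triangles) of the knockout, heterozygote 1 and heterozygote 2 libraries, 1 point per library and class. Svs2 is at least 223533 in the circles and at most 71477 in the triangles, while Svs4 is the reverse and Svs5 is alike in both.

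Members held epithelial transcripts together with some RNA of other classes. The summed level of 9 pan-epithelial markers (Epcam, Cdh1, keratins 8, 18 and 19, claudins and Cd24a) was 3929, 3749 and 3906 CPM. The summed level of 7 fibroblast markers was 17.8, 13.7 and 27.4 CPM, of 7 endothelial markers 3.63, 10.3 and 8.49 CPM, of 7 macrophage markers 5.80, 3.69 and 7.14 CPM, and of 7 basal markers 61.2, 40.9 and 43.7 CPM. Higher sums were seen for 7 smooth muscle markers, at 132, 78.7 and 228 CPM in members, against 5369, 1413 and 1193 CPM in barcodes that were not Svs-rich, and for 14 prostate secretory markers, at 1427, 5844 and 13603 CPM, against 52011, 141226 and 134725 CPM. The 6 ionocyte markers summed to 147, 92.6 and 111 CPM in members, above the 63.4, 26.9 and 39.0 CPM of barcodes that were not Svs-rich. The 10 markers of epididymis and vas deferens summed to 0.435, 1.19 and 1.012 CPM, with 6, 8 and 6 of them at 0. The median member held 22483, 14468 and 18654 UMIs and 3409, 2743 and 3305 genes, with Svs genes at 46.0%, 48.9% and 46.9% of UMIs. Deposited totals were 129015041, 47601747 and 100801564 UMIs in 13273, 5000 and 13866 barcodes. Between 15 and 57 barcode sequences were shared by a pair of libraries, none of them a member in both.

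The rule has thresholds that members crossed by differing margins. Members with only 3 or 4 marker UMIs numbered 36, 19 and 94, and 23, 14 and 46 Svs-rich barcodes lay just outside with 2. In all, 38, 72 and 252 barcodes met every marker condition but had Svs genes below 20% of UMIs, of which 9, 2 and 44 were at 15% or above, while 18, 10 and 67 members had 20% to 25%.

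Pate8 Defb42 cells made up 17.7% of Svs-rich barcodes in the knockout (503 of 2846, exact 95% interval 16.3 to 19.1), while the share was 54.2% in heterozygote 1 (379 of 699, 50.4 to 58.0) and 71.4% in heterozygote 2 (787 of 1102, 68.6 to 74.1). The gap came with 1693 Sva Ceacam10 cells in the knockout, 12 in heterozygote 1 and 7 in heterozygote 2. Without that class the shares were 43.6%, 55.2% and 71.9%. Barcodes of few genes had a median Svs share of 26.3% in the knockout, above the limit for an Svs-rich barcode. Their median was 0.585% and 3.02% in heterozygotes 1 and 2. Svs-rich barcodes of no class numbered 371 in the knockout (median Svs share 24.6%), against 47 (44.2%) and 188 (29.4%). How many Svs-rich barcodes held mostly free RNA was not tested, so the Svs-rich denominators may not be comparable across libraries. Among all barcodes that passed the limits, members were 5.04% (4.62 to 5.49) in the knockout, against 8.03% (7.27 to 8.85) in heterozygote 1 and 7.43% (6.94 to 7.95) in heterozygote 2. The knockout was below both heterozygotes by each of these denominators, but without Sva Ceacam10 cells its place against heterozygote 1 turned in 3 alternatives. That share was 60.5% in the knockout, against 57.6% in heterozygote 1, with Svs genes at 30% or more, 58.6%, against 58.3%, with the stricter cell filter, and 57.9%, against 57.3%, at 3000 UMIs. With the rule as given the intervals of the heterozygotes overlapped only among all barcodes. Clopper-Pearson intervals cover counting error only, 1 library against 2 cannot give p below 0.33, and how much of the gland was taken with each prostate is not given in the sources used here.

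**Figure D2:**
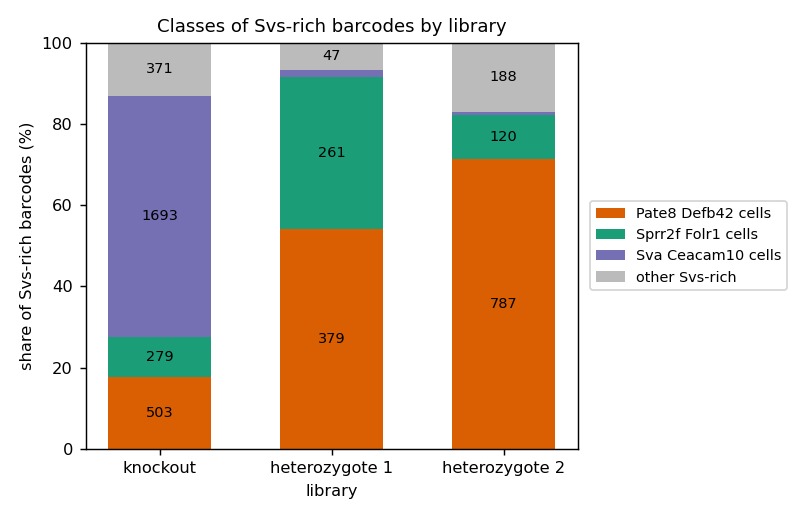
Share of Svs-rich barcodes (%) in 4 classes in the knockout, heterozygote 1 and heterozygote 2 libraries, with barcode counts printed in the larger bars. Pate8 Defb42 cells are 17.7% of the knockout bar, 54.2% of heterozygote 1 and 71.4% of heterozygote 2, and Sva Ceacam10 cells fill most of the knockout bar.

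Outside the rule genes, members and Sprr2f Folr1 cells differed by at least 2-fold in few of the abundant genes. Of 1585 genes with at least 50 CPM in members, 51 were at least 2-fold higher in members of all 3 libraries, and of 1518 genes at that level in Sprr2f Folr1 cells, 81 were at least 2-fold lower in members of all 3. These folds describe the contrast that chose the cells and carry no test. Among the higher genes, Pfkfb3, Bpgm and Isyna1 encode enzymes that act on sugar phosphates. Pfkfb3, which makes the glycolytic activator fructose 2,6-bisphosphate, had 843, 700 and 722 CPM in members, against 26.3, 43.2 and 159 CPM in Sprr2f Folr1 cells. Bpgm, the bisphosphoglycerate mutase, had 609, 903 and 701 CPM, against 87.0, 193 and 237 CPM. Isyna1, the inositol phosphate synthase, had 52.2, 69.2 and 58.9 CPM, against 13.0, 9.35 and 10.9 CPM. All 3 separated the classes in every library.

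Atp1b3, Atp2c2, Fgfbp1 and Ptgds were also higher. Atp1b3, a beta subunit of the sodium pump, had 548, 546 and 544 CPM in members, against 59.5, 72.3 and 141 CPM in Sprr2f Folr1 cells. Atp2c2, a calcium pump of the secretory pathway, had 60.3, 41.5 and 67.4 CPM, against 6.997, 9.90 and 18.1 CPM. Fgfbp1, which binds and releases fibroblast growth factors, had 159, 96.8 and 86.6 CPM, against 0.666, 4.399 and 22.5 CPM. Ptgds, a prostaglandin D synthase, had 19.0, 87.7 and 63.3 CPM in members, against 0.666, 15.9 and 17.7 CPM. Its knockout level in members was close to the heterozygote levels in Sprr2f Folr1 cells. The 20 genes highest by the smallest of the 3 library ratios also held Suco, Ccdc162, Olfr1033, Bach2, Gm5420, Clcn5, Sdk1, Etnk1, Gm16136, Mgst1, Endod1, Plcb1 and Atp6v1g3, at log2 ratios from 1.44 for Plcb1 to 2.63 for Atp6v1g3 in the library nearest to 0 (5 CPM added). Svs-rich barcodes of no class, at median depths of 1770, 4204 and 2566 UMIs, shared some of these traits. Bach2 and Sdk1 in the knockout, Olfr1033 and Isyna1 in heterozygote 1 and Plcb1 in heterozygote 2 were higher there than in members. The rest of the 20 were higher in members of each library.

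The genes lowest in members relative to Sprr2f Folr1 cells included secreted proteins and an ion cotransporter. Spinkl, a Kazal-type inhibitor-like secreted protein, had 183, 326 and 34.5 CPM in members, against 7531, 25943 and 7261 CPM in Sprr2f Folr1 cells. Slc12a2, the sodium potassium chloride cotransporter, had 15.9, 18.9 and 36.9 CPM in members, against 569, 332 and 379 CPM. Mia, a small secreted protein, had 0.871, 1.32 and 0.281 CPM in members, against 53.3, 71.8 and 45.5 CPM. Pate14 had 1.96, 3.03 and 3.20 CPM in members, against 41.8, 80.5 and 50.3 CPM, so Pate genes were split between the classes. Clca3a2, Pip4k2a, Tenm3, Wfdc15b, Gm1673 and B4galt6 completed the 10 lowest. In the library nearest to 0 the log2 ratios of the 10 ran from -5.33 for Spinkl to -2.75 for Pate14. In barcodes of few genes Slc12a2 stood at 163, 338 and 167 CPM, above its level in members of each library.

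A fraction of the members carried a second set of transcripts, Foxi1 and proton pump subunits, which are among the markers of ionocytes, epithelial cells rich in proton pumps. Of the 6 ionocyte markers, 3 had at least 10 CPM in members of each library, and Ascl3 and Cftr were not examined in the fraction. This fraction was noticed because Atp6v1g3, a proton pump subunit, was found in few members, and it was chosen after its values were seen, so no test is given. At least 2 Atp6v1g3 UMIs were present in 78 of the knockout members (15.5%), 47 of heterozygote 1 (12.4%) and 156 of heterozygote 2 (19.8%). The same held for 0.717%, 0.383% and 5.83% of Sprr2f Folr1 cells and for 1.42%, 1.22% and 1.70% of barcodes that were not Svs-rich. Among Svs-rich barcodes of no class it was 1 of 371, 4 of 47 (8.51%) and 3 of 188, so in heterozygote 1 those barcodes lay near the members. Foxi1, the master transcription factor of ionocytes, had 123, 82.8 and 64.7 CPM in these members, against 0.934, 1.022 and 1.12 CPM in members with no Atp6v1g3 UMI. Atp6v0d2, another pump subunit, had 50.8, 48.2 and 57.1 CPM, against 0.747, 1.53 and 1.84 CPM. Clcn5, a chloride proton exchanger outside the 6 ionocyte markers, had 232, 137 and 231 CPM, against 7.47, 12.3 and 10.5 CPM. Car2, also outside those markers, was much alike in both, at 70.2, 79.4 and 98.3 CPM, against 74.4, 71.3 and 88.0 CPM. Slc26a4 was near 0 in both, at 0, 0 and 2.76 CPM, against 0, 0.681 and 0.722 CPM. The pump and Foxi1 transcripts thus sat together in the same droplets in all 3 libraries.

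By the rule these droplets also held Svs, Pate8, Defb42 or Elf5 UMIs, so their levels of these genes are a description. Svs2 stood at 223036, 241353 and 201807 CPM in members with Atp6v1g3, against 266401, 259900 and 234035 CPM in members without it. Pate8 stood at 409, 225 and 165 CPM, against 606, 301 and 193 CPM, and Elf5 at 186, 184 and 195 CPM, against 244, 211 and 204 CPM. Svs genes took a median of 37.4%, 46.4% and 38.4% of UMIs, against 47.4%, 49.8% and 50.6%, and the median total was 33787, 26968 and 24523 UMIs, against 20441, 13640 and 17287. Barcodes with the highest doublet scores were 20.5%, 0% and 12.8% of members with Atp6v1g3, against 15.0%, 9.85% and 10.7% of members without it. The part of doublets or of depth in this fraction was not tested. After thinning to 2000 UMIs, a Foxi1 UMI was found in 5.00% of knockout members (25 of 500, exact interval 3.26 to 7.29), 3.69% in heterozygote 1 (14 of 379) and 2.30% in heterozygote 2 (18 of 783). Unthinned shares were 13.9%, 10.8% and 12.2%. None of 275, 261 and 118 Sprr2f Folr1 cells, and none of 134, 35 and 76 macrophages, which should lack Foxi1, had a Foxi1 UMI at 2000 UMIs. Unthinned, the share was 0.717%, 0% and 3.33% in Sprr2f Folr1 cells and 0%, 0% and 1.06% in macrophages.

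**Figure D3:**
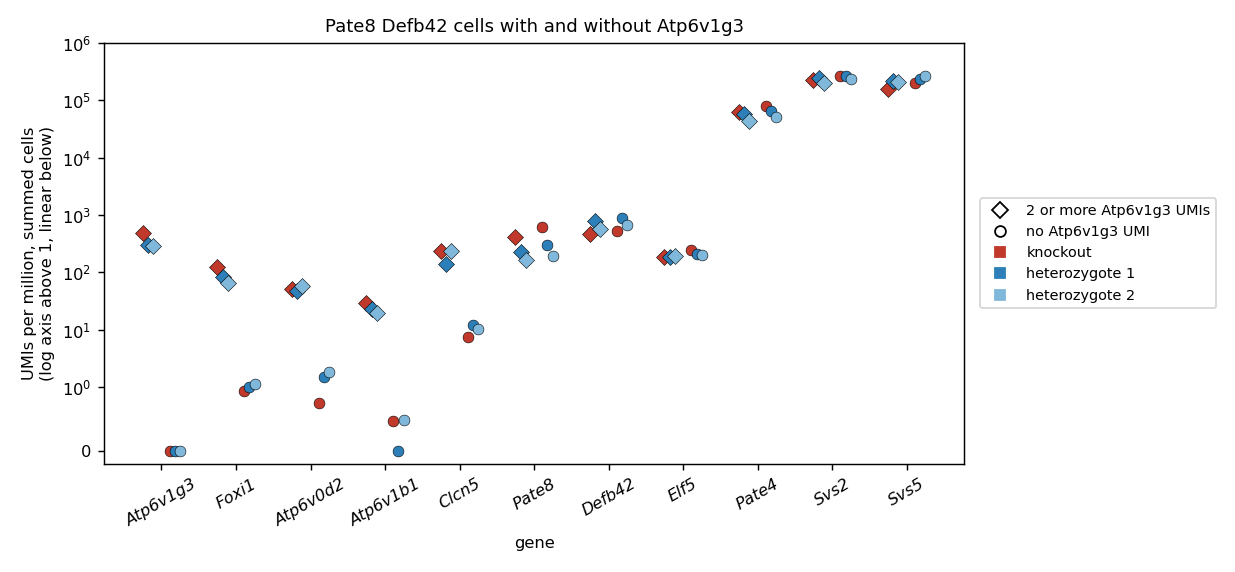
CPM (log axis above 1, linear below) of 11 genes in Pate8 Defb42 cells with at least 2 Atp6v1g3 UMIs (diamonds) and with none (circles), 1 point per library. Foxi1 lies between 64.7 and 123 in the diamonds and near 1 in the circles, while Svs2, Pate4 and Elf5 are alike in both.

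Members also differed among themselves in the defining genes. All 3 of Pate8, Defb42 and Elf5 were detected in 72.8% of knockout members, 63.3% in heterozygote 1 and 63.4% in heterozygote 2. Pate8 per 10000 UMIs had a 10th percentile of 0, a median of 3.91 and a 90th percentile of 12.9 in the knockout, 0, 1.59 and 7.41 in heterozygote 1 and 0, 1.19 and 4.77 in heterozygote 2. Defb42 had 0, 3.12 and 11.8 in the knockout, 1.59, 7.45 and 18.5 in heterozygote 1 and 1.24, 5.07 and 13.3 in heterozygote 2. From cell to cell, Pate8 and Defb42 had Spearman rho of 0.0252, -0.0609 and 0.00014 over the 503, 379 and 787 members. Pate8 and Elf5 had rho of 0.226, 0.203 and 0.262, and Svs2 and Pate4 0.765, 0.671 and 0.816. Cells of a library share depth and free RNA, so these values describe the members and have no p. The rule admitted cells by the sum of Pate8, Defb42 and Elf5, which can lower rho between these genes. A rho near 0 thus does not show that Pate8 and Defb42 vary independently. Defb42 without Pate8 was seen in 10.3% of knockout members, 28.2% in heterozygote 1 and 25.4% in heterozygote 2, and Pate8 without Defb42 in 12.5%, 3.17% and 3.81%. Nefh, a neurofilament gene described with the genotype results, had 19.4, 304 and 578 CPM in members with Defb42 and no Pate8, against 12.5, 105 and 199 CPM in members with Pate8 and no Defb42.

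Among 5136 genes seen in at least 20% of members of each library, the genes most like the sum of Pate8, Defb42 and Elf5 from cell to cell were Pate4 (rho 0.401, 0.355 and 0.586 in the knockout, heterozygote 1 and heterozygote 2), Cd52 (0.278, 0.278 and 0.425) and Cdo1 (0.268, 0.274 and 0.507). Bpgm, Gm16136, Suco, Pate2, Coro2a, Ces1d and Serp1 followed, ranked by the lowest of the 3 values, down to 0.186 for Serp1. The most opposed genes were Ifrd1, App, Kcnma1, Limch1 and Chka, at -0.210 or below in each library. Each rho was computed over the members of 1 library on values per 10000 UMIs outside the Svs genes.

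Steroid receptors and enzymes gave no call in members. Esr1, estrogen receptor alpha, had 3.62 CPM scaled by the trimmed mean of M-values (TMM) in the knockout, 5.45 in heterozygote 1 and 8.41 in heterozygote 2, below its level in barcodes of few genes (53.1, 78.4 and 34.5 CPM). With each cell thinned to 2000 UMIs, which left out 3, 0 and 4 members, an Esr1 UMI was found in 0.600%, 0.792% and 2.43% of members (7.36%, 8.97% and 15.5% unthinned). The thinned share in macrophages, at unthinned median depths of 3901, 3537 and 2678 UMIs, was 2.99%, 2.86% and 3.95% (4 of 134, 1 of 35 and 3 of 76). These are few cells of a class not shown to lack Esr1, so they cannot set a background. Whether the share in members is background was not tested. Srd5a2, the targeted gene, had 0 UMIs in 503 knockout members, which by the limit of 3 counts allows up to 0.596% of cells with a UMI, against 2 UMIs in heterozygote 1 and 10 in heterozygote 2. Heterozygote members were at 0.264 and 0.562 CPM, below the 1.78 and 3.13 CPM of their barcodes of few genes, so Srd5a2 does not check the genotype in these cells. None of 10 steroid receptors and enzymes tested passed, by edgeR, DESeq2 or limma-voom, with 1, 0 and 1 at unadjusted p below 0.05.

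Knockout and heterozygote members differed in 229 of 12837 genes tested (1.78%) at an adjusted p of 0.05 in edgeR's quasi-likelihood test, with 62 higher (0.483%) and 167 lower (1.30%) in the knockout. The test compares 1 library with 2 and leaves 1 residual degree of freedom. Spread within a genotype is thus seen only in the heterozygote pair, and edgeR moderates it for each gene toward a trend over all genes. A gene could therefore be called with its heterozygotes far apart, as were Igha, Msmb and Wfdc3 below. P-values do not rest on the spread of each gene's own libraries alone, and whether the libraries are separate animals is not stated. DESeq2 called 42 and limma-voom 127, and after subtraction of a free RNA profile 19 were called, 17 of them among the 229. Values below are TMM-scaled CPM in the order knockout, heterozygote 1, heterozygote 2.

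Kcnd2, Nefh and Spock1 were lower in knockout members and passed with each tool. Kcnd2 (ENSMUSG00000060882.5, chromosome 6, 21215503 to 21729805, plus strand), a voltage-gated potassium channel, had 1.85 in knockout members, against 76.9 and 94.1 in heterozygote members. It was found in 2.78% of knockout members, against 34.6% and 35.2% of heterozygote members (log2 fold change -5.53 ± 0.47, edgeR adjusted p = 1.09e-28). Nefh (ENSMUSG00000020396.8, chromosome 11, 4938754 to 4948064, minus strand), the heavy neurofilament chain, had 26.0, against 251 and 324 (-3.47 ± 0.40, edgeR adjusted p = 9.43e-15). Spock1, a matrix proteoglycan, had 2.59, against 20.6 and 24.9 (-3.14 ± 0.40, edgeR adjusted p = 2.20e-12). In heterozygote members all 3 stood above the level in barcodes of few genes, which was 41.0 and 17.0 CPM for Kcnd2, 12.5 and 17.5 for Nefh and 5.34 and 7.61 for Spock1. All 3 also passed after subtraction of free RNA.

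Adgrl3 (ENSMUSG00000037605.16, chromosome 5, 81020138 to 81825133, plus strand), an adhesion receptor of the latrophilin family, was higher in knockout members at 25.3, against 5.73 and 4.93 in heterozygote members. It was found in 35.4% of knockout members, against 8.71% and 8.51% (log2 fold change 2.26 ± 0.32, edgeR adjusted p = 6.45e-10), and it passed in each alternative that gave a test. Pglyrp1, a peptidoglycan recognition protein, had 102, against 41.5 and 17.8 (1.80 ± 0.31, edgeR adjusted p = 1.91e-06). Rprm, an inhibitor of cell cycle progression, had 26.2, against 11.9 and 6.91, Steap4, a metalloreductase, 20.8, against 8.18 and 8.57, and Rtp4, an interferon-induced receptor transporter, 36.1, against 16.1 and 13.1. Pglyrp1, Rprm, Steap4 and Rtp4 did not pass in DESeq2 (adjusted p from 0.157 for Rtp4 to 1.00 for Pglyrp1) or after free RNA was subtracted, and did in limma-voom. Coil, Gm42031, Neb, Dkkl1 and Cd74 completed the 10 highest, at log2 fold changes from 1.26 for Dkkl1 to 1.70 for Cd74.

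**Figure D4:**
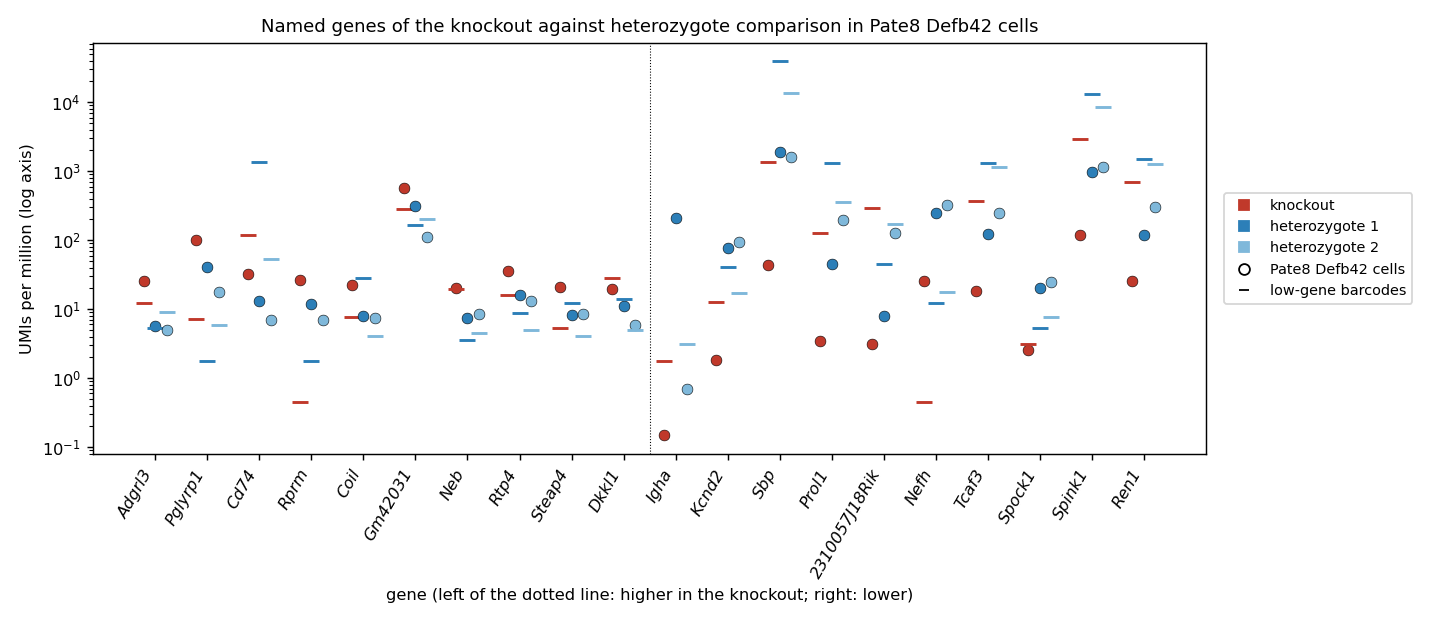
CPM (log axis) of the 10 highest and 10 lowest named genes in Pate8 Defb42 cells of the knockout, heterozygote 1 and heterozygote 2 libraries (circles, TMM-scaled), with the level in barcodes of few genes as dashes (plain totals, 0 not drawn). Kcnd2, Nefh and Spock1 lie above the dashes in the heterozygotes, and Sbp, Spink1, Tcaf3 and Ren1 lie below them in every library.

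Prostate secretory genes were lower in knockout members as a group, and the droplet background moved with them. All 13 tested of 14 listed were lower (background 1.30% of genes), with a median log2 fold change of -2.58 against -0.02 over all genes tested, and 11 were below both heterozygotes, against 32.3% of all genes. The exceptions were Defb50 (178, against 143 and 994) and Msmb (106, against 68.7 and 570.3), which without heterozygote 2 had log2 fold changes of 0.32 and 0.63. Sbp, a spermine-binding secreted protein, had 44.0 in knockout members, against 1905 and 1624 in heterozygote members, Tgm4, the prostate transglutaminase, 144, against 549 and 1495, and Pbsn, probasin, 367, against 746 and 2165. The summed list stood at 1427, 5844 and 13603 CPM in members and at 29805, 119439 and 70889 CPM in barcodes of few genes of the same libraries, so members held 4.79%, 4.89% and 19.2% of the background level. Of the 167 genes lower in the knockout, 107 (64.1%) were below the level of those barcodes in heterozygote 2, against 38.5% of all genes tested. Of the 13 genes, 3 passed in DESeq2 and 11 in limma-voom, and after subtraction of free RNA 2 did, Tgm4 and Gsdma. The subtraction was scaled by these same percentages, which removes the summed level of this list in each library. The loss of calls in the list was thus set by the method and cannot show whether the list differs. For heterozygote 1, which had 2 barcodes under 500 genes, the background profile came from the 200 with the fewest genes, which may be cells. Tcaf3, Ren1, Spink1, Prol1 and 2310057J18Rik, also among the 10 lowest, stood below the background level in each library. Igha, the immunoglobulin A heavy chain, had 209 in heterozygote 1, where all 1534 UMIs came from 0.792% of the members, against 0.148 in the knockout and 0.696 in heterozygote 2.

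Interferon-stimulated and MHC genes leaned to the knockout. Of 20 tested, 5 were higher and 0 lower in edgeR (background 0.483% higher), and 19 were above both heterozygotes, against 32.5% of all genes. The median log2 fold change was 0.94, against -0.02 over all genes. Psmb8, an immunoproteasome subunit, had 32.9 in knockout members, against 19.8 and 11.6 in heterozygote members, Tap1, the peptide transporter, 15.4, against 6.41 and 6.21, and Ifit1 5.03, against 0.954 and 1.55. The MHC class II genes H2-Ab1 (14.6, against 3.14 and 3.27) and its chaperone Cd74 (31.9, against 13.2 and 6.96) also rose, but the 10 richest members held 51.5% of the knockout's H2-Ab1 UMIs and 52.7% of its Cd74 UMIs. B2m, the light chain of class I, had 2162, against 2796 and 1896, and was not called. Across tools the list's calls were 5 of 20 in edgeR, 1 in DESeq2 and 2 in limma-voom, with 12, 6 and 13 genes at unadjusted p below 0.05. After free RNA subtraction 2 genes, H2-Ab1 and Cd74, passed, at log2 fold changes of 10.2 and 11.3. In heterozygote 1 their level in the background profile, from barcodes that may be cells, was 718 and 1375 CPM. The amount subtracted exceeded the member level in both heterozygotes, so these passes follow from the subtraction and are no check on the difference. Macrophage markers summed to 5.80 CPM in knockout members, against 3.69 and 7.14 CPM in heterozygote members.

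The opposite lean appeared in cholesterol synthesis without any gene passing. Of 23 genes tested, 20 were below both heterozygotes, against 32.3% of all genes, and the median log2 fold change was -0.46, against -0.02. None passed in edgeR, DESeq2 or limma-voom, with 5, 0 and 1 genes at unadjusted p below 0.05. Fdft1, squalene synthase, had 44.0 in knockout members, against 53.6 and 37.7 in heterozygote members, Srebf2, the pathway's transcription factor, 20.9, against 26.6 and 26.2, and Pmvk 16.9, against 25.1 and 18.2. Fdft1 was thus among the genes where the knockout lay between the heterozygotes.

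**Figure D5:**
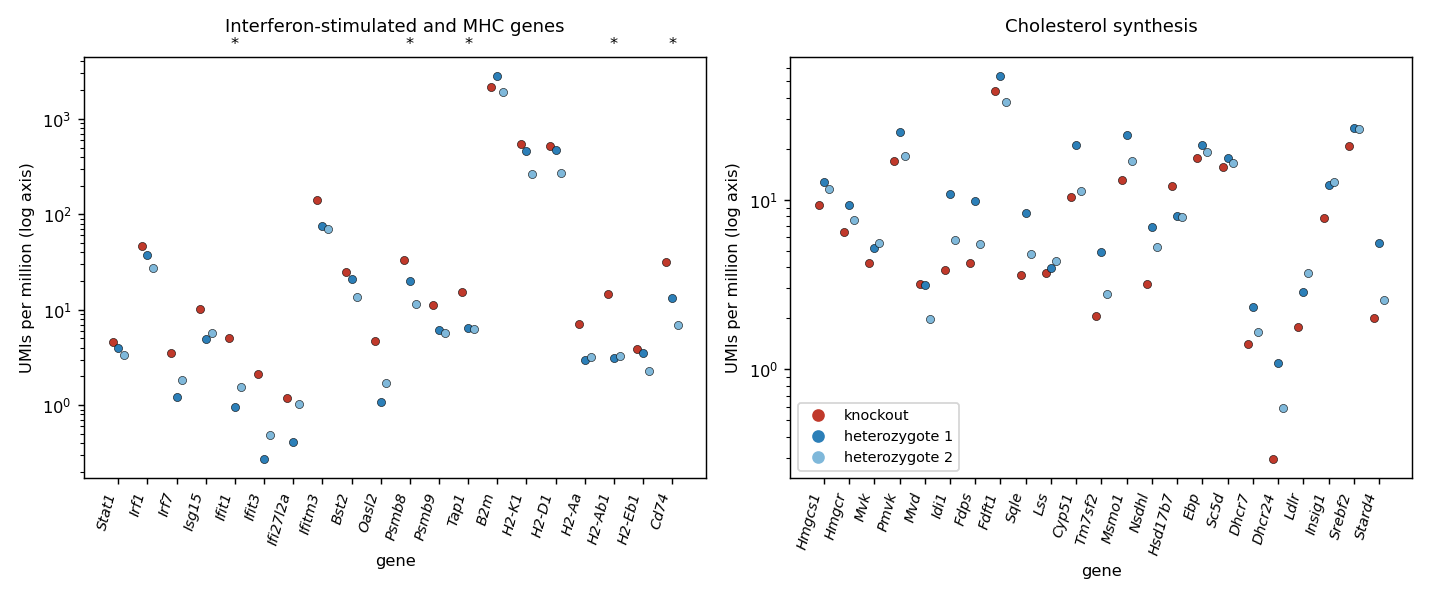
TMM-scaled CPM (log axis) of interferon-stimulated and MHC genes (left) and cholesterol synthesis genes (right) in Pate8 Defb42 cells, 1 point per gene for the knockout, heterozygote 1 and heterozygote 2 libraries. Stars mark the 5 genes that passed edgeR's test, Ifit1, Psmb8, Tap1, H2-Ab1 and Cd74, and 20 of 23 genes on the right have the knockout below both heterozygotes.

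Among factors of the Wolffian duct and urogenital sinus, the tubes from which the seminal vesicle and the prostate form, 2 of 14 tested were lower in knockout members and 0 higher (background 1.30% lower). Hoxb13, a prostate Hox factor, had 2.29, against 10.2 and 20.5 in heterozygote members, and Hoxa10 0.296, against 1.77 and 2.73. Both stood above these levels in barcodes of few genes of each library, where Hoxb13 had 35.1, 139 and 87.8 CPM. Neither passed after subtraction of free RNA, 1 passed in DESeq2 and 1 in limma-voom. Some factors, named after their values were seen, stood above that background in members of every library and did not pass. Hoxd9 had 14.9, against 17.0 and 14.4, Emx2 23.4, against 23.5 and 20.1, and Pax2 7.32, against 11.7 and 10.2. Sox9 had 90.0, against 73.4 and 97.2, and Gata2 29.6, against 46.1 and 68.0, and neither passed.

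The other lists are read against a background of 0.483% of genes higher and 1.30% lower. Of 26 androgen-responsive genes tested, 1 was higher (Steap4) and 3 lower (Pbsn, Azgp1 and Mme, each with a higher level in barcodes of few genes), while Sgk1 had 451, against 389 and 399, and did not pass. Of 7 Pate and defensin genes tested outside the rule, Pate9 and Defb50 were lower and none higher. Neither passed in DESeq2 (adjusted p = 1.00 for both) or after subtraction of free RNA, and in limma-voom Pate9 passed and Defb50 did not (adjusted p = 0.0552). Pate4 had 76666, against 65780 and 45641 (log2 fold change 0.46 ± 0.22, edgeR adjusted p = 0.553). No gene passed among 19 of sulfur amino acid and taurine metabolism or among 8 epithelial ETS factors, by edgeR, DESeq2 or limma-voom, with 3, 1 and 1 of the sulfur list and 0 of the ETS factors at unadjusted p below 0.05. Cdo1 had 2647, against 3135 and 2278. Of 31 endoplasmic reticulum folding genes only Nupr1 was lower, and the chaperone Hspa5 had 991, against 883 and 888. Of 8 proximal luminal markers tested, Clu was higher and Psca lower, 2 were above and 4 below both heterozygotes, and the median log2 fold change was -0.557. Clu, a secreted chaperone, had 8134, against 4652 and 3249 (1.04 ± 0.29, edgeR adjusted p = 0.0184), and did not pass in DESeq2 or limma-voom. In all, 3 immediate early genes were lower, Jund (124, against 343 and 418), Klf2 (5.25, against 19.0 and 18.5) and Fosb, of 27 tested. Of 19 protease inhibitors 4 were lower and 0 higher, Spink1 (120, against 960 and 1147), Spink10 (8.57, against 41.3 and 19.8), Wfdc3 (20.9, against 20.6 and 97.2) and Timp2 (1.77, against 2.86 and 7.61). Spink1 and Spink10 also passed in DESeq2 and limma-voom, Wfdc3 and Timp2 in neither, and none of the 4 after subtraction of free RNA. In each list of this paragraph that held a lower gene, the share of lower genes was above the background. In lists this short 1 gene is enough for that. Pbsn, Azgp1, Defb50 and Spink1 also belong to the prostate secretory list described above.

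Whether the knockout difference in members was unlike that in Sprr2f Folr1 cells of the same libraries was tested directly, with library as a block. That fit too had 1 knockout library and 1 residual degree of freedom, with spread moderated toward a trend over all genes. The difference between differences passed for 370 of 11972 genes (3.09%), 169 higher (1.41%) and 201 lower (1.68%) in members. Interferon and MHC genes were unlike in the classes, with 8 of 20 lower and 0 higher in members. Iigp1 had 5.44 TMM-scaled CPM in knockout members, against 10.5 and 1.32 in heterozygote members, while in Sprr2f Folr1 cells it had 104 in the knockout, against 6.89 and 4.48. Ido1 had 5.51, against 5.86 and 3.09 in members, and 53.1, against 1.64 and 2.04 in Sprr2f Folr1 cells. Spink5, a Kazal-type inhibitor, had 10.7, against 12.5 and 15.7 in members, and 0.902, against 142 and 31.3 in Sprr2f Folr1 cells. Its member level in the knockout rested on few cells, since 2.39% of knockout members had a Spink5 UMI, against 12.7% and 16.4% of heterozygote members, and the 10 richest cells held 98.7% of the knockout's UMIs. Fgfbp1 had 149, against 91.6 and 75.5 in members, and 0.722, against 5.25 and 22.8 in Sprr2f Folr1 cells. Without the library block 0 genes passed, with 567 at unadjusted p below 0.05, and with barcodes of high doublet score removed 54 passed.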

How the data were processed

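Single-cell RNA was measured in 3 libraries of whole mouse prostate, 1 Srd5a2 knockout and 2 Srd5a2 heterozygote. The authors deposited raw UMI counts per gene and barcode, and per the submitters' processing notes the software was Cell Ranger 3.1.0 and the genome mm10. The method of cell calling is not given in the sources used here. Free RNA was described by barcodes under 500 genes (2521 in the knockout and 2249 in heterozygote 2; in heterozygote 1, which had 2, by the 200 barcodes with the fewest genes). Counts of members were summed per library, since cells are not replicates, giving 13784188, 7582133 and 17791005 UMIs, and tested with edgeR 4.0.16 (quasi-likelihood, TMM, low-count filter, Benjamini-Hochberg threshold 0.05). For subtraction of free RNA, its profile was scaled in each library by the summed prostate secretory markers in members relative to the profile. The difference between classes used library as a block. DESeq2 1.42.0 and limma 3.58.1 (voom) were alternatives, and the fits were tested on simulated data. Rule genes and mitochondrial genes stayed in the fit and were not counted as calls. Doublets were scored with scrublet in scanpy 1.11.5. Its automatic threshold marked 0, 0 and 1 barcodes and so did not work, and the top scores at 0.8% per 1000 barcodes were used instead, members included, and removed only in an alternative. Promoter windows came from a RefSeq table of GRCm38.p6.

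Named genes were the 10 highest and 10 lowest called genes with a mean of at least 10 CPM and the knockout beyond both heterozygotes by at least 0.5 on the log2 scale, called members of gene lists with up to 4 of their most abundant members, the 20 highest and 10 lowest genes against Sprr2f Folr1 cells at 50 CPM, and the label markers. Some genes of these lists are not reported here and were left out of the list counts. The members and lists were chosen with earlier results of these data known. Intervals are exact Clopper-Pearson at 95% and cover counting error only. No column of per-sample values was left unused.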

Additional observations from a re-analysis of the deposited data

Results flagged for a closer look

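For 9 of the genes named in the genotype comparison, the knockout difference in Pate8 Defb42 cells was unlike that in Sprr2f Folr1 cells of the same libraries, by edgeR's test of the difference with library as a block (adjusted p at most 0.0473). The values below are the difference in members minus that in Sprr2f Folr1 cells, on the log2 scale. It was -2.61 for Cd74, which stood at 146 CPM in knockout Sprr2f Folr1 cells, against 7.70 and 6.84 CPM in heterozygote ones, and -3.47 for Spink1, at 2135 CPM, against 1174 and 2331 CPM. It was -2.03 for Ren1 (92.0 CPM, against 90.7 and 298 CPM), -2.91 for Kcnd2 (1.67 CPM, against 3.02 and 20.9 CPM) and -1.42 for Prol1 (3.83 CPM, against 39.9 and 35.4 CPM). It was 2.01 for Nefh (5.50 CPM, against 140 and 401 CPM), 2.00 for Steap4 (3.00 CPM, against 2.47 and 7.64 CPM) and 1.19 for Dkkl1 (113 CPM, against 119 and 89.7 CPM). It was -9.46 for Igha, whose UMIs in heterozygote 1 came from 0.792% of the members. Kcnd2 and Nefh had their lowest value of the 3 libraries in the knockout in both classes. When barcodes with high doublet scores were removed, the count of genes with an unlike difference was 54, against 370.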

How the results depend on the processing

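The count of genes that differed between genotypes, 229, was 19 after subtraction of free RNA (17 shared), 42 in DESeq2 and 127 in limma-voom, and lay between 199 and 232 in the other settings. The count of genes whose difference was unlike that in Sprr2f Folr1 cells, 370, was 123 with Svs genes at 30% or more, 221 with the stricter cell filter, 54 with doublets removed and 112 with barcodes of at least 3000 UMIs. With no replicate block, that is without the library term, it was 0, with 567 at unadjusted p below 0.05. No paired analysis was possible because the genotype groups share fewer than 2 replicate numbers. The share of members among Svs-rich barcodes was 20.04%, 23.3% and 22.2% in the knockout and 77.2%, 80.1% and 80.2% in heterozygote 2 with Svs at 30%, the stricter cell filter and 3000 UMIs, and 62.9% in heterozygote 2 with at least 5 marker UMIs. The share of members with an Esr1 UMI was 0% in the knockout and 1.40% in heterozygote 2 at 1000 UMIs, and 7.36%, 8.97% and 15.5% unthinned. After subtraction of free RNA the log2 fold change reversed to 3.47 for Defb50, 2.31 for Pbsn, 0.80 for Wfdc3, 0.44 for Timp2 and 0.85 for Msmb. Defb50, Pbsn and Msmb belong to the prostate secretory list by which the subtraction was scaled, so their reversal says nothing about free RNA. Leaving out each heterozygote in turn, a value with no test, gave -2.48 and 0.32 for Defb50, -2.21 and 0.022 for Wfdc3 and -2.42 and 0.63 for Msmb. Of 55 named genes, 17 kept their call in DESeq2, 11 after subtraction and 42 in limma-voom. The cause of these changes was not tested. The count of called genes without a heterozygote was not run, since 1 against 1 leaves no residual degree of freedom.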
